A study of Mus musculus with 4 samples.

Results

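Myod1, Sox9 and Runx2 encode the transcription factors that direct skeletal muscle, cartilage and bone formation, the fates that mesenchymal precursors can take in place of fat. Their probes were taken by position, as the genomic probes of a promoter tiling array that lie in a mm9 window around each gene. The genes and windows themselves were chosen with earlier results of these data known. There were 40 such probes among 174638, with 9 for Myod1, 8 for Sox9 and 23 for Runx2, and the same 40 were on all 4 arrays. After a filter on signal they gave 5 of the array's 17452 regions of at least 3 probes.

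The arrays measured methylated DNA in 3T3-L1 cells, a mouse embryo fibroblast line that turns into adipocytes when induced. DNA immunoprecipitated with an antibody against 5-methylcytosine (IP) was labelled with Cy5 and input DNA of the same cells with Cy3, and both were hybridized to 1 array (MeDIP-chip). The groups were shRNA8 cells at day +2, shRNA8 cells at day -2, control cells at day +2 and control cells at day -2, with 1 array each. The shRNA8 cells were stably transfected with an shRNA against slincRAD, a long non-coding RNA, and the control cells were wild type 3T3-L1. No line carrying a control shRNA was analysed here, so carrying the construct and losing slincRAD cannot be told apart, and the labels do not say whether the shRNA8 line is a single clone. Day -2 cells were harvested before induction. Day +2 cells were harvested after the change to medium with insulin (167 nM), dexamethasone (1 µM) and the phosphodiesterase inhibitor IBMX (0.5 mM). The input label of the shRNA8 array at day +2 names that day but calls the cells uninduced, and the day was followed. Each group had 1 array, so there is no replicate spread to judge a difference by, no test was made, and precision is limited by the number of arrays. Every SD below is over probes of the same arrays.

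Myod1 is a helix-loop-helix factor that can turn fibroblasts into muscle cells, and its CpG island is a textbook case of an island that gains methylation when mouse fibroblasts are established as permanent lines. Sox9, an HMG-box factor, switches on the collagen and aggrecan genes of chondrocytes. Runx2, a Runt-domain factor, is needed for osteoblasts to form and is transcribed from a pair of promoters far apart. Methylation of CpG sites at a promoter is commonly associated with silencing. An antibody against 5-methylcytosine recovers fragments by how many methylated sites they carry, so the ratio of IP to input depends on the density of CpG sites as well as on the share of them that is methylated.

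The probes formed 5 groups, in which the starts of neighbouring probes lay 193 to 587 bp apart. The Myod1 group covered chr7:53630545-53632243 and the Sox9 group chr11:112642224-112643940. The Runx2 probes fell into a low-coordinate group of 9 probes at chr17:44872701-44874701, a middle group of 6 at chr17:44912822-44914567 and a high-coordinate group of 8 at chr17:44951194-44952900. The files pair probes with mm9 positions and not with genes or start sites, and no mm9 annotation was used here, so which groups cover a transcription start, an exon or an intron is not stated. In the RefSeq gene table of GRCm38.p6, Runx2 (gene ID 12393, 6 protein-coding transcripts) overlaps Supt3 and Runx2os3, so a position in its window may belong to these genes as well. Myod1 (gene ID 17927) and Sox9 (gene ID 20682) overlap no other gene there.

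Of the 3 genes, 1 has an entry in the RefSeq table of promoter sequences (GRCm38.p6). The 250 bases before that Runx2 start, chr17:44814628-44814877 on the minus strand, are shown because they hold none of the CpG sites on which the assay mainly depends. Capitals mark the letters AACCACA, a form of the site that Runx proteins bind.
Runx2: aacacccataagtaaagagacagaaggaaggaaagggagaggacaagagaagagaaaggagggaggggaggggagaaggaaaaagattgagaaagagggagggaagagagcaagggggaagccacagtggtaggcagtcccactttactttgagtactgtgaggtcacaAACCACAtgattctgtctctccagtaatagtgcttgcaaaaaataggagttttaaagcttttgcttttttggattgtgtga
This stretch holds 0 CpG sites, against a median of 6 in the same 250 bases of 32851 promoters in the table, of which 7.87% hold 0. AACCACA was searched on both strands, where TGTGGTT is its reverse complement, and occurs 1 time, 81 bases before the start on the gene's strand. The same letters occur in 4.40% of the promoters. The build of this sequence is not that of the probes, and it was not placed among them.

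All 40 probes were free of spot flags. The IP signal was above background in all 4 arrays at 37 of them, but the dimmer input was so at 26, and only these 26 entered the comparisons. They were 5 of 9 probes for Myod1, 4 of 8 for Sox9, and 7 of 9, 4 of 6 and 6 of 8 in the low-coordinate, middle and high-coordinate groups of Runx2. Over the whole array 95060 probes, or 54.4%, passed. The median background-subtracted signal of the 40 probes was 90.6 and 79.3 in the IP of shRNA8 cells (day +2, day -2), against 78.5 and 77.1 in control cells (day +2, day -2). In input it was 14.1 and 14.2 in shRNA8 cells (day +2, day -2), against 8.14 and 11.1 in control cells (day +2, day -2). The input of control cells was thus the dimmest measurement, as it was over all probes, where its medians were 5.95 at day +2 and 6.49 at day -2, against 8.78 and 8.64 in shRNA8 cells.

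**Figure D1:**
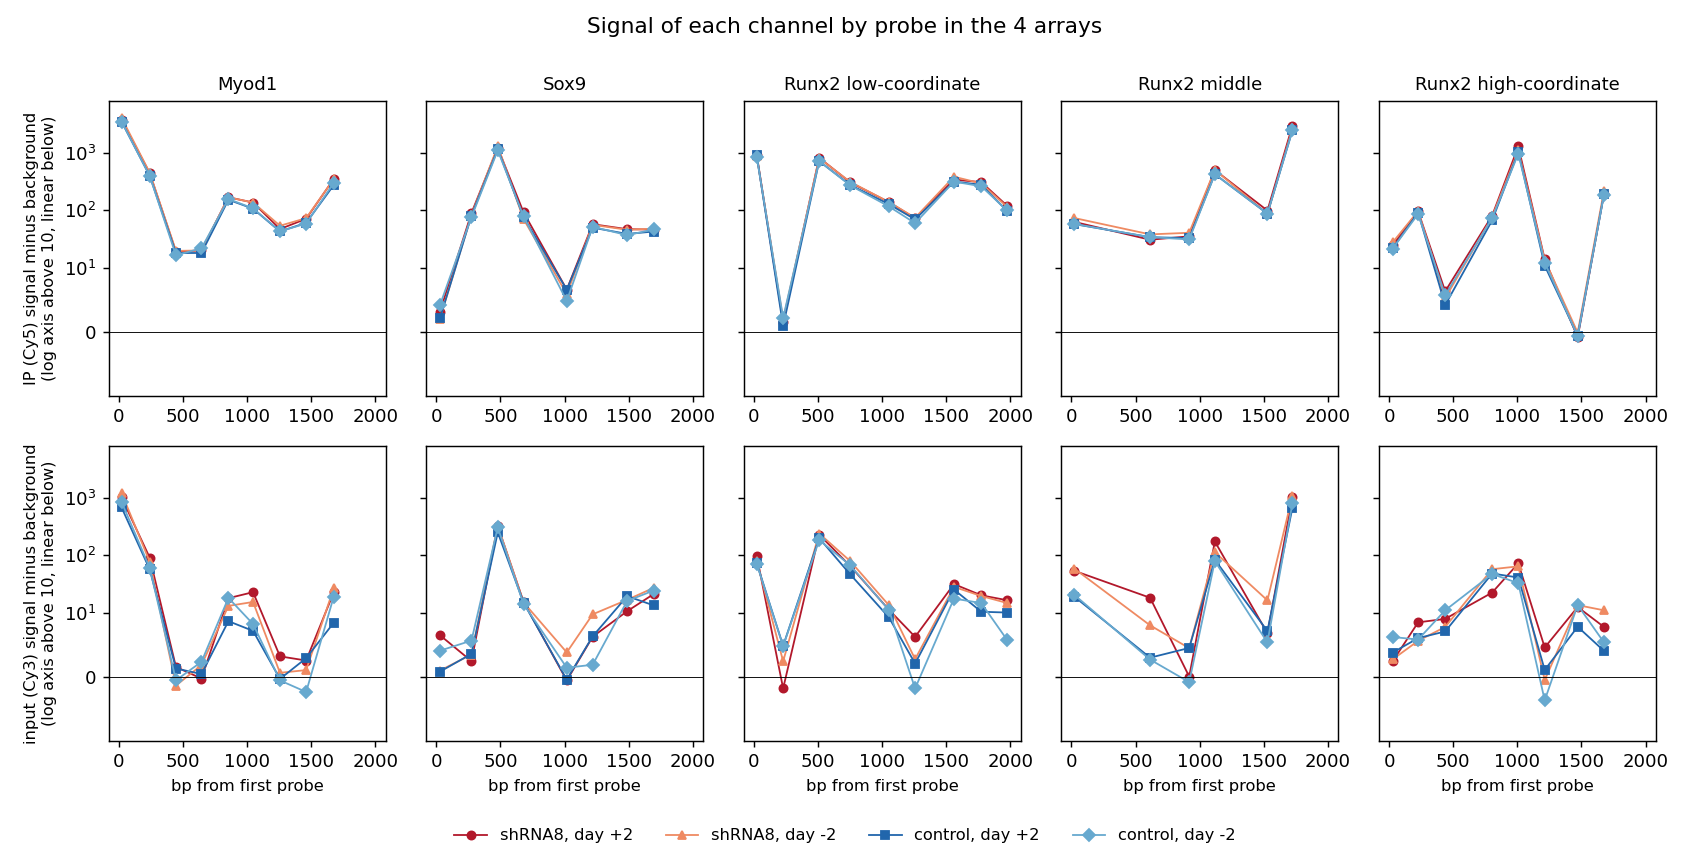
Background-subtracted IP signal (top) and input signal (bottom) of all 40 probes against distance from the first probe of each group, for the 4 arrays; the vertical axis is logarithmic above 10 and linear below. The IP lines of the 4 arrays nearly coincide over signals from below 0 to 4032, while the input lines part at dim probes.

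The level of the ratio differed far more between positions than between arrays. The values are log2 ratios of IP to input after removal of each array's median and quantile normalization over the 4 arrays, so that 0 is the level of a middle probe. Over the 26 probes the ratio of any 2 arrays correlated with Pearson's r of 0.930 to 0.967, a description of 26 positions that share probes, probe lengths and base composition. IP and input signals themselves ran together along the probes, with r of 0.77 and 0.75 in shRNA8 cells (day +2, day -2), against 0.72 and 0.70 in control cells (day +2, day -2).

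At Myod1 the mean ratio over the passing probes lay above the middle of the array in every sample. The mean over 5 probes was 0.45 ± 0.85 in shRNA8 cells at day +2 and 0.62 ± 0.83 at day -2, and 0.97 ± 1.02 in control cells at day +2 and 0.56 ± 0.72 at day -2. Among 17452 regions of at least 3 probes these levels stood at percentiles 81.0 and 87.3 in shRNA8 cells (day +2, day -2), against 95.1 and 85.4 in control cells (day +2, day -2). The highest level belonged to control cells at day +2, and the other 3 arrays lay close together. The IP signal did not share this order, since its percentiles were 92.9, 93.0, 92.3 and 93.1 in the same order of arrays.

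Within Myod1 the ratio differed along the 1699 bp. The first probe, at 53630545, had the brightest IP of all 40 probes, with 3730 and 4032 in shRNA8 cells (day +2, day -2), against 3465 and 3488 in control cells (day +2, day -2). Its input was bright as well, at 1015 and 1215 in shRNA8 cells, against 679 and 843 in control cells, so its ratio was below 0 in all 4 arrays, from -0.60 to -0.24. The only other probe with input well above background, at 53630764, had -0.08 and 0.20 in shRNA8 cells (day +2, day -2), against 0.14 and 0.17 in control cells (day +2, day -2). The mean level above 0 thus rested on the other passing probes, whose input was dimmer. The last probe, at 53632199, had the highest ratio of the gene in each array, 1.67 and 1.35 in shRNA8 cells (day +2, day -2), against 2.30 and 1.35 in control cells (day +2, day -2). The 4 probes that did not pass the input filter had IP signals of 16.5 to 72.8 over inputs of -2.38 to 3.19, which allow no ratio to be read.

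At Sox9 the mean ratio over the passing probes lay below the middle of the array in every sample. The mean over 4 probes was -0.51 ± 0.65 in shRNA8 cells at day +2 and -0.72 ± 0.62 at day -2, and -0.88 ± 0.61 in control cells at day +2 and -0.95 ± 0.66 at day -2. These levels stood at percentiles 34.6 and 26.6 in shRNA8 cells (day +2, day -2), against 21.3 and 19.6 in control cells (day +2, day -2). The order of the arrays is not read as a difference between the lines, since the share of all regions with such an order was not counted. The gaps between the lines were smaller than the SD of the levels over the 4 probes, which is a spread between positions and not of the difference. The IP percentiles of Sox9 were 33.7, 32.9, 34.0 and 34.1 in the same order of arrays, and those of its input 46.4, 55.0, 62.8 and 65.7. The lowest ratio of the passing probes was at the last probe, at 112643896, in 3 of the arrays and at its neighbour at 112643690 in control cells at day +2. The probes that did not pass had IP signals of 2.05 to 89.3 over inputs of -0.587 to 9.77, too dim for a ratio to be read. Before normalization, those at 112642476 and 112643421 lay above each array's median ratio of passing probes, and those at 112642224 and 112643219 below it.

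Over the passing probes the mean ratio was above 0 in all 4 arrays in the low-coordinate group of Runx2 and below 0 in the others. In the middle group it was -0.66 ± 1.61 and -0.80 ± 0.95 in shRNA8 cells (day +2, day -2). In control cells it was -0.30 ± 0.86 and -0.16 ± 1.14 on the same days. Without its first passing probe the middle group stood at percentiles 53.1, 40.6, 55.9 and 65.3 in the same order of arrays. The mean of the high-coordinate group depended on 1 spot, as given below. The low-coordinate group stood high in all 4 arrays, with means over 7 probes of 0.67 ± 0.79 and 0.69 ± 0.85 in shRNA8 cells (day +2, day -2), against 0.67 ± 0.85 and 0.76 ± 0.93 in control cells (day +2, day -2). Its percentiles were 88.7, 89.2, 88.5 and 91.2 in the same order of arrays, and 94.5 to 96.1 once each probe was set against the median of probes of its own length. The 2 probes below 0 there, at 44873188 and 44873430, were so in every array, from -0.66 to -0.18.

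The high-coordinate group had the widest range of ratios of the 5 groups. The probe at 44952841 had the group's highest ratio, 2.42 and 1.95 in shRNA8 cells (day +2, day -2), against 2.85 and 2.60 in control cells (day +2, day -2). The probe before it, at 44952636, had -4.60 and -4.78 in shRNA8 cells (day +2, day -2), against -4.27 and -4.96 in control cells (day +2, day -2). The IP signal of this low probe was below background in all 4 arrays, from -0.883 to -0.155, so its ratio rests on a processed signal given to a spot without measurable IP. Both probes are 60 bases long, the length at which the median ratio of all probes was -1.49 and -1.23 in shRNA8 cells (day +2, day -2), against -1.35 and -1.35 in control cells (day +2, day -2). Probes of 45 bases had medians of 0.02 to 0.05. With all 6 passing probes the group's mean was -0.45 and -0.70 in shRNA8 cells (day +2, day -2), against -0.60 and -0.66 in control cells (day +2, day -2). Without the probe below background it was above 0 in all 4 arrays, 0.38 and 0.12 in shRNA8 cells (day +2, day -2), against 0.13 and 0.19 in control cells (day +2, day -2). The percentiles of these means were 27.4 to 37.3 with that probe and 66.9 to 78.3 without it. With each probe set against the median of its own length, all 6 probes gave percentiles above the middle. They were 70.2 and 51.4 in shRNA8 cells (day +2, day -2), against 58.9 and 55.5 in control cells (day +2, day -2). Without the probe below background they were 83.4 to 93.1. The side of the middle on which the group lies thus depended on 1 spot without measurable IP and on whether probe length was allowed for.

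**Figure D2:**
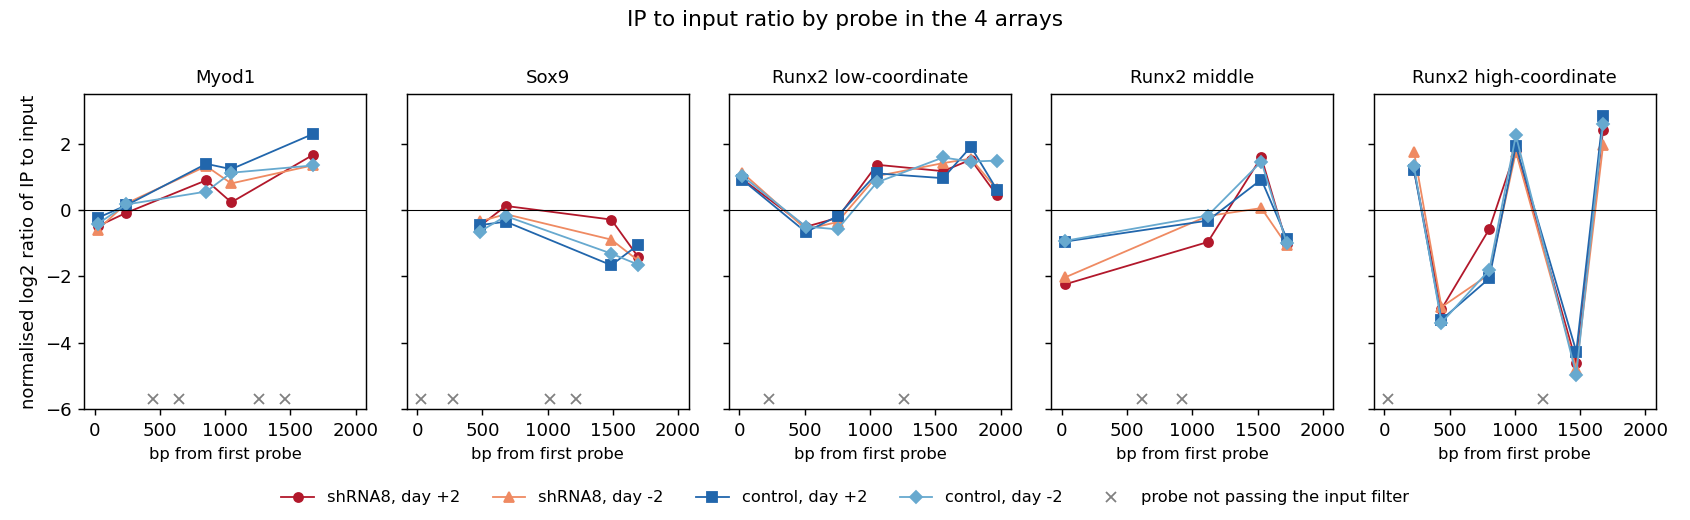
Normalised log2 ratio of IP to input of the 26 probes that passed the input filter, against distance from the first probe of each group, for the 4 arrays; crosses mark probes that did not pass. The arrays share the profile of each group, Runx2 low-coordinate lies mostly above 0 and Sox9 mostly below. The first probe of the Runx2 middle group, lower in the shRNA8 arrays, was singled out after its values were seen.

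Line and day differences were then read over regions, runs of at least 3 passing probes no more than 1000 bp apart. Each of the 5 groups gave 1 region, and the first passing probe of the Runx2 middle group stood alone outside them. The size rule asked for a mean difference of 0.6 or more on the log2 scale (1.52-fold) with the same sign in 75% or more of a region's probes. It was met by 0 of the 5 regions in each of the 4 comparisons. Over the whole array 3.34% of the regions did so between shRNA8 and control cells at day +2 and 2.43% at day -2. Between day +2 and day -2 it was 3.19% in shRNA8 cells and 2.09% in control cells. With a size of 0.4 in place of 0.6 it was met by Myod1 at day +2, where 10.3% of all regions met it, by Runx2 middle at day -2, where 8.09% did, and by Myod1 between the days in control cells, where 7.43% did. Between the days in shRNA8 cells 0 of the 5 met it, against 8.31% of all regions. Without a filter on input Runx2 middle met the rule of 0.6 at day -2, with a mean of -0.70, as did 1.35% of the 21971 regions then formed. That mean takes in probes whose input was not above background in every array. The 20 mean differences ran from -0.52 to 0.41. In 2 of the 20 the SD over probes was smaller than the mean, but that SD is between positions and is no replicate spread.

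**Figure D3:**
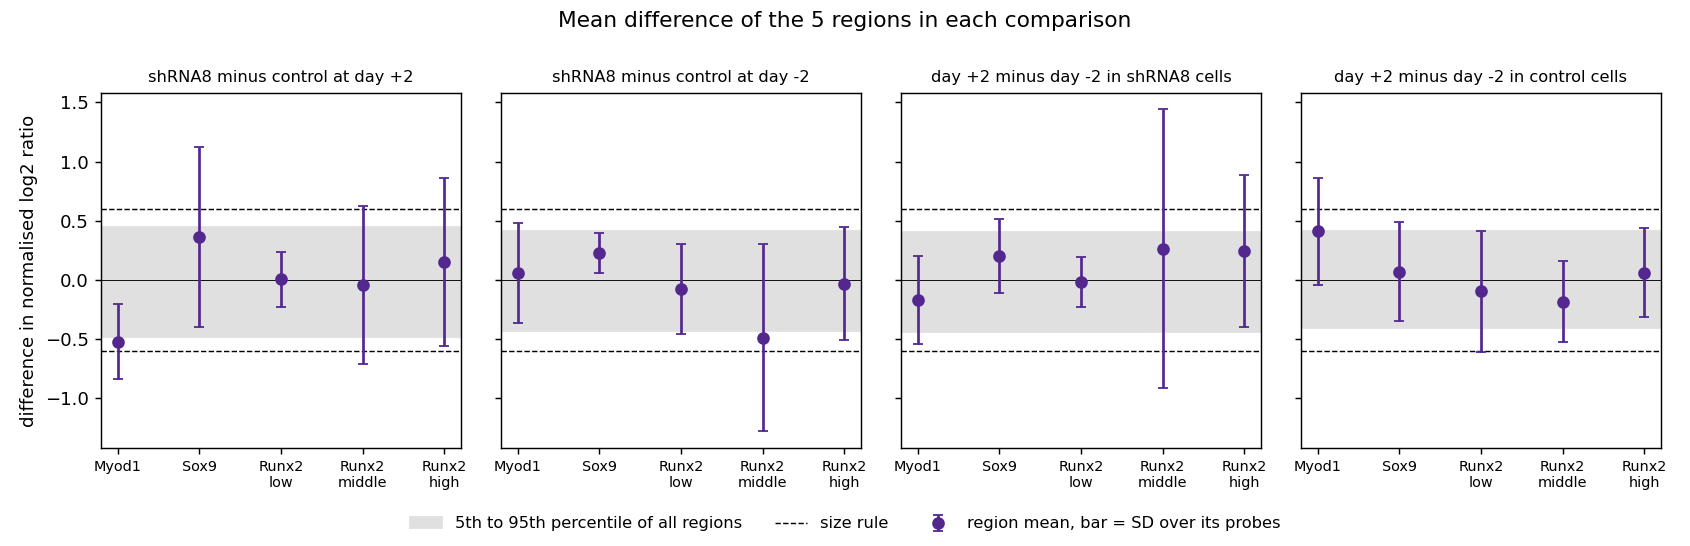
Mean difference in normalised log2 ratio of the 5 regions in each comparison (points), with bars for the SD over the region's probes; grey marks the 5th to 95th percentile of all regions and the dashed lines the size rule of 0.6. Myod1 at day +2 (-0.52) and Runx2 middle at day -2 (-0.49) are the points below the grey band.

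Myod1 gave the largest of these differences. At day +2 its mean ratio was 0.45 in shRNA8 cells against 0.97 in control cells, a difference of -0.52 ± 0.32 with all 5 probes lower in shRNA8 cells. Over the array, 4.05% of regions had a more negative mean difference there, and in 4.30% every probe was lower. Without the input filter the difference was -0.17 over 9 probes, 4 higher and 5 lower, but this takes in the probes whose input allowed no ratio to be read. Over the 2 probes with input well above background it was -0.26. At day -2 the means were 0.62 in shRNA8 cells and 0.56 in control cells, a difference of 0.06 ± 0.42, with 3 probes higher and 2 lower. The difference at day +2 was in the input channel. Relative to the array medians, the IP of shRNA8 and control cells differed by 0.03 ± 0.10 on the log2 scale and the input by 0.58 ± 0.46, with input brighter in shRNA8 cells at all 5 probes.

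The probe at 53631570 carried the largest share of it. Its input was 22.9 in shRNA8 cells at day +2 against 7.18 in control cells, and 15.5 in shRNA8 cells at day -2 against 8.25 in control cells. Its IP was 136 in shRNA8 cells at both days, against 107 and 108 in control cells (day +2, day -2). The difference in its ratio was -1.0 at day +2 and -0.32 at day -2. The SD of the same difference over all probes of its class of input brightness was 0.73 at day +2.

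Between the days the mean differences of Myod1 had opposite signs in the lines, as in 47.2% of all regions, and neither met the size rule. In shRNA8 cells the mean was 0.45 at day +2 and 0.62 at day -2, a difference of -0.17 ± 0.37 with 2 probes higher and 3 lower. In control cells it was 0.97 at day +2 and 0.56 at day -2, a difference of 0.41 ± 0.45, with 4 of 5 probes higher at day +2. In control cells it was 0.18 as a median over the probes and 0.08 over the 2 probes with input well above background. The control array at day +2 enters this difference and the line difference at day +2 alike, so the values are not independent of each other. In control cells the IP differed by -0.05 ± 0.05 and the input by -0.45 ± 0.51 between the days.

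The mean IP difference of Sox9 ran from -0.06 to 0.03 over the 4 comparisons, although single probes reached -0.36 between the lines at day -2 and 0.34 between the days in shRNA8 cells. At day +2 its mean ratio was -0.51 in shRNA8 cells and -0.88 in control cells, a difference of 0.36 ± 0.76 with 2 probes higher and 2 lower. At day -2 the means were -0.72 in shRNA8 cells and -0.95 in control cells, a difference of 0.23 ± 0.17 with all 4 probes higher in shRNA8 cells. In 10.6% of all regions every probe moved the same way at day -2. The day +2 value rested on the probe at 112643690, where the ratio was -0.28 in shRNA8 cells against -1.66 in control cells, with inputs of 10.7 and 19.5 and IP of 46.8 and 38.8. Over the 3 probes with input well above background the mean difference at day +2 was -0.01. Without the input filter that at day -2 was 0.0012, which takes in probes too dim in input for a ratio to be read. Between the days the mean differed by 0.20 ± 0.31 in shRNA8 cells, against 0.07 ± 0.42 in control cells. The SD over the 4 probes is a spread between positions and does not measure how far arrays of 1 group would differ.

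The mean differences of the Runx2 low-coordinate region had the narrowest range of the 5 regions over the 4 comparisons. Its 7 probes differed between shRNA8 and control cells by 0.01 ± 0.23 at day +2 and -0.07 ± 0.38 at day -2. The difference between the days was -0.02 ± 0.21 in shRNA8 cells and -0.10 ± 0.51 in control cells. Each of these means was smaller than its SD over positions, which is no replicate spread. The mean IP difference ran from -0.03 to 0.02 over the 4 comparisons.

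In the high-coordinate region the differences between shRNA8 and control cells were 0.15 ± 0.71 at day +2 and -0.03 ± 0.48 at day -2 over 6 probes. The first value rested on the probe at 44951976, where the ratio was -0.57 in shRNA8 cells at day +2, against -1.94 in shRNA8 cells at day -2, -2.06 in control cells at day +2 and -1.80 in control cells at day -2. Its input was 22.5 in shRNA8 cells at day +2 and 57.4 at day -2, against 48.3 and 47.4 in control cells (day +2, day -2). The IP of this probe was 80.2 and 76.1 in shRNA8 cells (day +2, day -2), against 66.6 and 72.7 in control cells (day +2, day -2), so 1 input spot stood apart. Between the days the region differed by 0.24 ± 0.64 in shRNA8 cells, against 0.06 ± 0.38 in control cells.

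The middle group of Runx2 held a probe whose difference between the lines was alike at both days. The 2 days share the lines and the probe, so they are not replicates of a line difference. This probe, chr17:44912822-44912869, was singled out after its values were seen. Its normalised ratio was -2.24 and -2.03 in shRNA8 cells (day +2, day -2), against -0.95 and -0.93 in control cells (day +2, day -2). The difference between shRNA8 and control cells was -1.29 at day +2 and -1.10 at day -2. The order of the arrays is not read further, since the share of all probes without overlap of the lines was not counted. Within each line the days differed by -0.21 in shRNA8 cells and -0.02 in control cells. The input was 53.8 and 58.7 in shRNA8 cells (day +2, day -2), against 19.1 and 20.5 in control cells (day +2, day -2). The IP was 62.6 and 73.2 in shRNA8 cells, against 57.4 and 57.7 in control cells, on the same days. Input was thus 2.82 and 2.86 times as bright in shRNA8 cells at day +2 and day -2, against 1.47 and 1.33 times for the median of all probes, while IP was 1.09 and 1.27 times as bright, against 1.15 and 1.14. Of the 26 probes it was the only one lower by at least 1 at both days, and 0.854% of all passing probes were so.

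Of its passing neighbours, those at 44913918 and 44914523 were lower in shRNA8 cells at both days, and that at 44914328 was not. At the next probe, at 44913409, input was 18.3 and 8.04 in shRNA8 cells (day +2, day -2), against 2.98 and 2.69 in control cells (day +2, day -2), and the probe did not pass the input filter. The region of 3 probes that did pass, chr17:44913918-44914567, differed between shRNA8 and control cells by -0.04 ± 0.67 at day +2 and by -0.49 ± 0.79 at day -2, with all 3 probes lower at day -2. The probe at 44914328 set the day -2 value, with a ratio of 0.06 in shRNA8 cells against 1.46 in control cells. At day +2 its ratio was 1.60 in shRNA8 cells against 0.92 in control cells, the opposite direction. The probe at 44913918 differed by -0.65 at day +2 and -0.01 at day -2. The brightest probe of the group, at 44914523, differed by -0.16 at day +2 and -0.05 at day -2. The difference of the region between the days was 0.26 ± 1.18 in shRNA8 cells, against -0.18 ± 0.34 in control cells.

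Across the 26 probes the differences followed the input channel. The SD of the difference over the 26 probes in IP, array medians removed, was 0.12 between the lines at day +2 and 0.14 at day -2. Between the days this SD was 0.13 in shRNA8 cells and 0.12 in control cells. The input SD was 0.48 to 0.62 over the same 4 comparisons. Over all passing probes it was 0.11 to 0.14 in IP and 0.51 to 0.57 in input, so both channels spread about as much at these genes as over the array. A difference of at least 1 in the ratio occurred at 4 of 26 probes between the lines at day +2 and at 2 at day -2, against 8.59% and 7.43% of all passing probes. Between the days it occurred at 2 probes in shRNA8 cells and 0 in control cells, against 6.89% and 6.74%. The spread depended on how bright the input was. In the dimmest of 10 classes of input brightness the SD of the difference over all probes was 0.73 to 0.82 in the 4 comparisons, and in the brightest it was 0.22 to 0.27. The 4 probes of these genes in the brightest class differed by -0.25 to 0.31 between the lines.

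**Figure D4:**
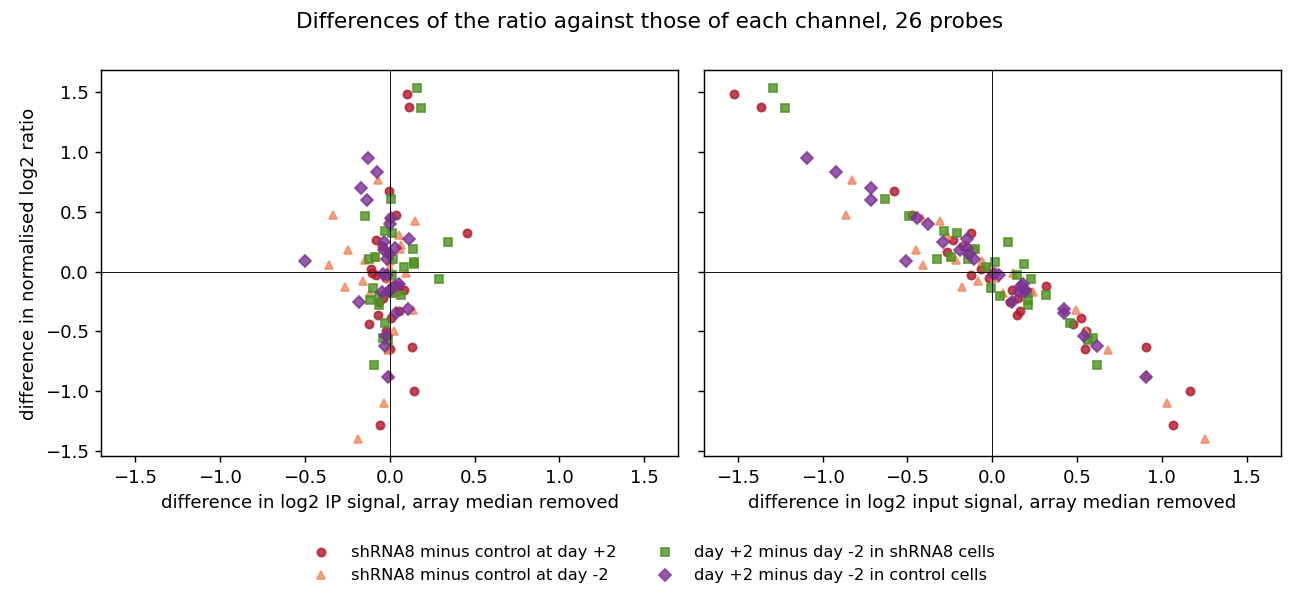
Difference in normalised log2 ratio of the 26 passing probes against the difference in log2 IP signal (left) and in log2 input signal (right), array medians removed, for the 4 comparisons. Points form a vertical band in IP, with an SD of 0.12 to 0.14, and a falling line in input, with an SD of 0.48 to 0.62, which the ratio contains by construction.

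The regions elsewhere whose levels were most like those of each gene are named by position. Closest to Myod1 over the 4 arrays were chr12:76732237-76733861 and chr15:78426592-78427859, with root mean square differences of 0.048 and 0.053 on the log2 scale. Closest to Sox9 were chr11:59661522-59661989 at 0.020 and chr1:90598268-90599295 at 0.033. Closest to the Runx2 low-coordinate region were chr4:122877933-122879215 at 0.026 and chr11:100719367-100722058 at 0.033. Within 0.1 lay 29 other regions for Myod1 (0.166%), 78 for Sox9 (0.447%) and 135 for Runx2 (0.774%). Likeness over 4 arrays with a nearly shared profile is mainly likeness of level.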

How the data were processed

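Per the file headers, the deposited values came from Agilent Feature Extraction 11.0.1.1 on build mm9. The intensity columns deposited by the authors hold median, background-subtracted and dye-normalized (processed) signals of each spot in both channels, with other columns of spot flags. A deposited log10 ratio served no result. limma is among the tools in the submitters' processing notes, with no role given.

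For each probe the log2 ratio of processed Cy5 to Cy3 was taken. Probes flagged in any array (174301 of 174638 were not) or with input not above background in all 4 arrays were left out. Ratios were centred on the array median and quantile normalized, which removes differences in overall methylation. All 3 genes and all their regions are named, with the 2 regions elsewhere closest to Myod1, Sox9 and the Runx2 low-coordinate region. Other lineage genes were not analysed here, since the files pair no probe with a gene. The genes, windows and rules were chosen with earlier results of these data known. The region script was tested on simulated data. Alternatives changed the normalization, filters, channel, size rule and regions. The software was limma 3.58.1 in R 4.3.3, and matplotlib 3.10.9, pandas 2.3.3, scipy 1.17.1 and numpy 2.4.6 in Python 3.11.15.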

Additional observations from a re-analysis of the deposited data

Results flagged for a closer look

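The difference between day +2 and day -2 had opposite signs in the 2 lines in 2 of the 5 regions, and whether the lines differ was not tested. At Myod1 the difference was -0.17 in shRNA8 cells, against 0.41 in control cells. In the middle region of Runx2 it was 0.26 in shRNA8 cells, against -0.18 in control cells. Over the array 47.2% of regions had opposite signs.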

How the results depend on the processing

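No paired analysis was made, since each group has 1 array and the groups share 1 replicate number. With 1 array per group no array could be left out in turn. An additive fit of line and day, which would leave 1 residual degree of freedom, was not made. The mean differences of 3 genes in 4 comparisons were recomputed under 9 alternatives, most of which reuse the same probes. Without a filter on input, Sox9 between shRNA8 and control cells at day -2 gave 0.0012 in place of 0.23, and Myod1 at day +2 gave -0.17 in place of -0.52. The probes added there had input not above background in every array, so these values are weak checks. With input well above background, Myod1 at day +2 gave -0.26, its day difference in control cells 0.083 in place of 0.41, and Sox9 at day +2 -0.0067 in place of 0.36. Without background subtraction Myod1 at day +2 gave -0.18. In the IP channel alone Myod1 at day +2 gave 0.045, its day difference in control cells gave -0.054, and Sox9 at day -2 gave -0.033. The cause of these moves was not tested. The count of regions past the size rule was 1 at day -2 without a filter on input (Runx2 middle). With a size of 0.4 it was 1 at day -2 (Runx2 middle, lower), 1 at day +2 (Myod1, lower) and 1 between the days in control cells (Myod1, higher). It was 0 in the other recomputations, which show no stability where few regions could pass, as in the IP channel alone, where 0 of 17452 regions did. Keeping only probes with IP above background, and leaving out the Runx2 probe below background, were chosen after seeing the data. Input brightness limits these values, since 14 of the 40 probes had input well above background in all 4 arrays.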
